A study of Mus musculus with 6 samples.

Results

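Copying a genome takes a dedicated set of proteins, and 53 mouse genes of DNA replication and nucleotide synthesis were followed here in RAW 264.7 macrophages after exposure to lipopolysaccharide (LPS), the outer-membrane glycolipid of Gram-negative bacteria. The gene list was drawn up with earlier results of these data known. Probes were then assigned to it by the gene symbol in the array's annotation, a step that uses no measured value. Of the 53 genes 50 had a probe, 58 probes in all among the 16281 of the table, and 48 were measured on all 6 arrays, among 11364 features so measured. Cdt1, Mcm8 and Rfc2 had no probe named for them, and Pcna and Orc3 were measured on some arrays only. Both RNA groups came from RAW 264.7, a mouse macrophage line transformed by Abelson leukaemia virus (written RAW 264.4 in part of the labels). Treated cells received LPS at 100 ng/ml with LPS-binding protein (LBP), a serum protein that carries LPS to cells, at 100 pM, and untreated cells were the controls. Both were cultured for 4 h, and the labels name no genetic modification. Total RNA of the 2 groups was hybridised together on two-colour arrays, numbered as sets 1 to 3, with treated RNA in the red dye Cy5 on 1 array of each set ("Cy5 arrays") and in the green dye Cy3 on the other ("Cy3 arrays").

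Replication starts at origins. The origin recognition complex binds DNA, and Cdc6 and Cdt1 use it to load rings of the MCM helicase in G1. Geminin (Gmnn) holds Cdt1 back once S phase has begun, so that each origin is used once. The kinase Cdc7 with its partner Dbf4 then fires the origins, and Cdc45 and the GINS complex join MCM to form the active helicase. Polymerase alpha with primase starts each strand, polymerases epsilon and delta extend it, and clamp, clamp loader, single-strand binding protein, flap nuclease and ligase complete the work. Ribonucleotide reductase, thymidylate synthase and the salvage kinases supply the deoxynucleotides. Transcription of many of these genes is driven by E2F factors at the passage from G1 to S phase.

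Every value below is a log2 ratio of treated over untreated RNA, so a negative value means less RNA in treated cells. A set's value is the mean of its 2 arrays, and the 3 set values were tested against 0 over all features with limma, at a Benjamini-Hochberg adjusted p under 0.05. Each deposited ratio was taken to be Cy5 divided by Cy3, since the labels call the Cy5 RNA the test. This is an assumption, and a table made the other way would turn every sign. With this reading the LPS-response genes Tnf (2.08 ± 0.18), Il1b (4.17 ± 0.055) and Cxcl10 (3.98 ± 0.30) were higher in treated cells in all 3 sets (SD over 3 sets). The arrays held 14195 to 15027 measured probes each, and exact zeros were taken as not measured. Whether each set was a culture of its own is not stated in the labels. A p-value here thus reflects only spread between these 3 sets, which may be technical. In limma the spread of each gene is drawn towards that of all features, so a small p-value does not rest on the gene's 3 values alone. The deposited ratios hold no levels, so the cell type could not be checked against macrophage markers, and no level was compared between genes. In RNA from whole cultures, fewer cells in S phase and less of a transcript per cell cannot be told apart.

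Of the 48 members measured throughout, 41 were lower in treated cells (85.4%), against 15.0% of all 11364 features. A single member, Dck, was higher (2.08%), against 14.0% of all features. The other 6, Orc2, Orc4, Mcm10, Cdc45, Dbf4 and Pold1, did not pass the test. The median of the 48 means was -0.29, and that of all features was 0.00080. All 41 were below 0 in each of the 3 sets, and 37 of them on each of the 6 arrays. Of the 1708 lower features, 1310 were below 0 on each of the 6 arrays. Most falls were small. Only Esco2, Tk1 and Gmnn fell by more than 2-fold, and 9 members by more than 1.5-fold. Of all 11364 features, 18 were lower by more than 2-fold and 153 by more than 1.5-fold. The median of the 41 was -0.35. Among all 11364 features ordered from the lowest ratio, Esco2, Tk1 and Gmnn stood at places 7, 9 and 10.

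**Figure D1:**
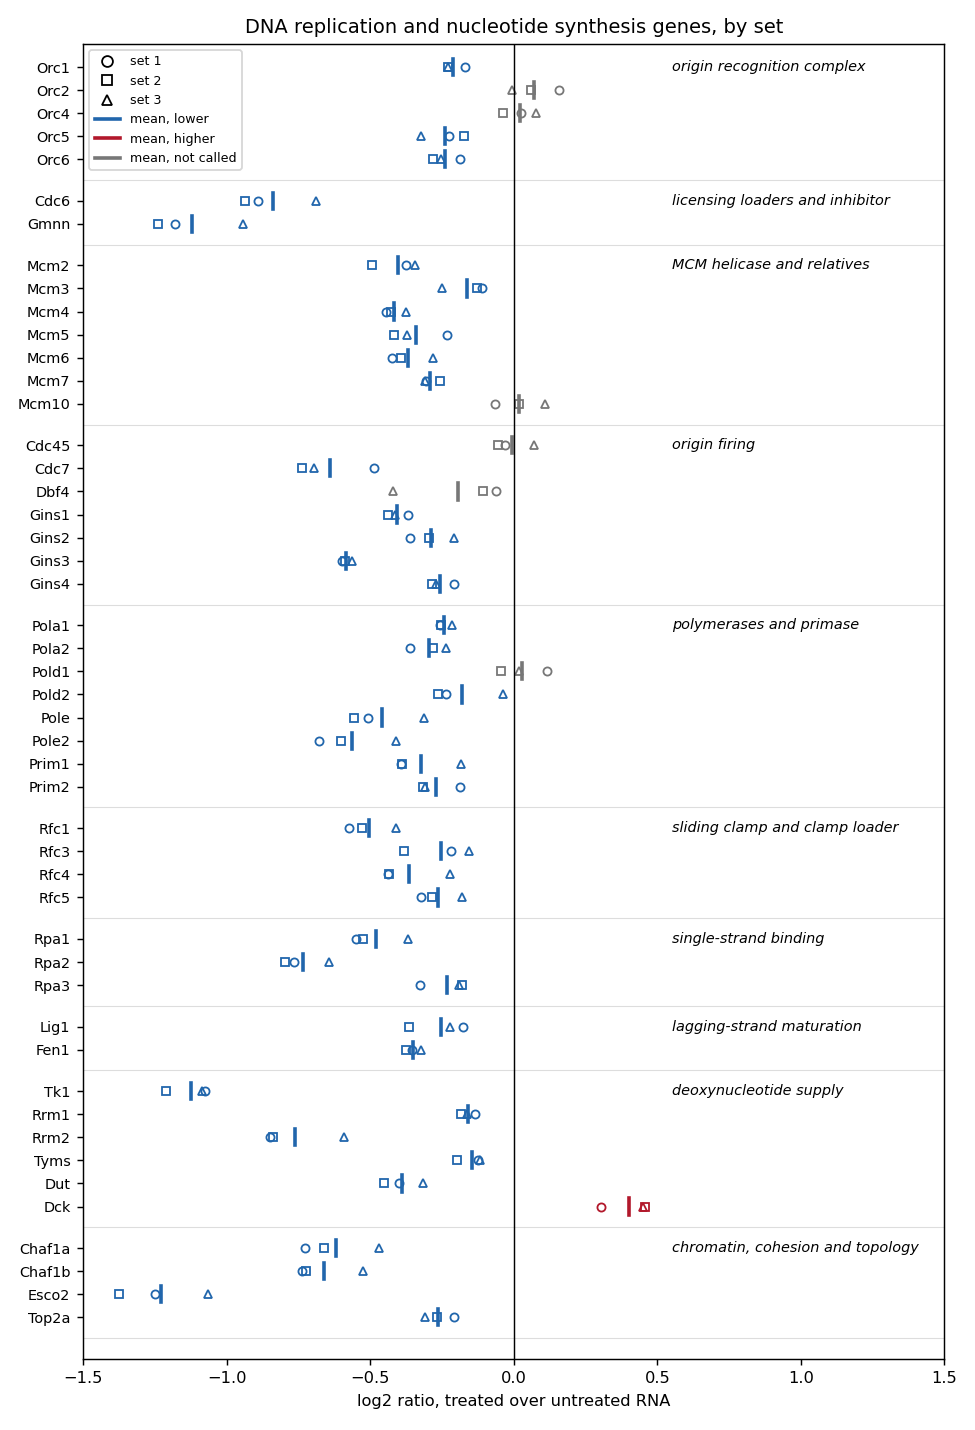
Log2 ratio of treated over untreated RNA for the 48 members measured on all 6 arrays, ordered by role; open symbols are the 3 sets and vertical bars their means, blue for lower, red for higher and grey for not called at a limma adjusted p under 0.05. Blue symbols all lie left of 0, Esco2, Tk1 and Gmnn lie beyond -1 on average, and Dck alone lies to the right in red.

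Promoter sequences are shown here because most of the members moved together. The windows come from RefSeq on GRCm38.p6 and run from 250 bases before a gene's start to 50 bases after it. A window existed for 44 of the 53 genes. Each was searched on both strands for the E2F sequences TTTCCCGC, TTTCGCGC, TTTGCCGC and TTTGGCGC. A match was found for 15 of the 44 members (34.1%). It was found for 298 of 7615 named genes in the fit that have a window (3.91%) and 704 of 27025 genes in the RefSeq table (2.6%). The 44 include genes that were not in the fit, namely Orc3, Cdt1 and Mcm8, each with a match, and Pcna, with none. Among members in the fit, 11 of 33 lower ones and 1 of the 7 others held a match. Shares near that of the members stood in related lists, with 7 of 23 G1/S control genes (30.4%), 3 of 8 cohesion genes (37.5%) and 6 of 26 further genes of origin firing and the fork (23.1%). For histone supply and DNA methylation it was 3 of 13 (23.1%). Lists of nucleotide metabolism held fewer, with 2 of 15 purine genes (13.3%), 0 of 8 pyrimidine genes and 0 of 21 further deoxynucleotide genes. In the lines below, each read 5′ to 3′ on the gene's strand, capitals mark the first match of each gene and lower case the bases around it. The lines were picked for holding a match, so the letters they share follow from the search. They come from genes of the origin complex, the loader, the helicase, the polymerases, the clamp loader and the ligase.
Orc1 (chr4:108579417-108579444, plus strand): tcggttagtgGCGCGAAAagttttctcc
Cdc6 (chr11:98908003-98908030, plus strand): ccggtggagaGCGGGAAAtcgcctgggg
Mcm3 (chr1:20820276-20820303, minus strand): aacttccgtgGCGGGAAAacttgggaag
Mcm5 (chr8:75109346-75109373, plus strand): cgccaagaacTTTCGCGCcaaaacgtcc
Mcm7 (chr5:138172031-138172058, minus strand): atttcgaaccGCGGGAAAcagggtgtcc
Gins3 (chr8:95633508-95633535, plus strand): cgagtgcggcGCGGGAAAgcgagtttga
Pola1 (chrX:93632276-93632303, minus strand): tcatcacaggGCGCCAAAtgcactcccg
Pole2 (chr12:69228163-69228190, minus strand): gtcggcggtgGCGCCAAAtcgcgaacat
Rfc3 (chr5:151651201-151651228, minus strand): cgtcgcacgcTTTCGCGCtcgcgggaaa
Lig1 (chr7:13278842-13278869, plus strand): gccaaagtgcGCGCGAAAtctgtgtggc
Pold1 (chr7:44548766-44548786, minus strand): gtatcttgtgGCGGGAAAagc
Mcm3, Mcm5, Mcm6, Mcm7 and Rfc3 held 2 or more matches, which for Mcm5 and Mcm6 overlapped each other, and of the 5 Mcm2 to Mcm7 genes with a window 4 held a match. Mcm6 is printed with its whole 250 bases before the start because it held 3 matches, 2 of them fused into 1 run of capitals.
Mcm6 (chr1:128359706-128359955, minus strand): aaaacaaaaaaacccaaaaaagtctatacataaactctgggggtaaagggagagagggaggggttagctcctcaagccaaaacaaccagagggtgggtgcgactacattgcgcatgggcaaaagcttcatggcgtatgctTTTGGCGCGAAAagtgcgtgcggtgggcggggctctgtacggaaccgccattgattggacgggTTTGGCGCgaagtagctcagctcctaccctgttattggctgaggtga
Tk1, the member with the largest fall among those with a window, held no match, and its 250 bases are printed beside those of Mcm6 for comparison.
Tk1 (chr11:117826015-117826264, minus strand): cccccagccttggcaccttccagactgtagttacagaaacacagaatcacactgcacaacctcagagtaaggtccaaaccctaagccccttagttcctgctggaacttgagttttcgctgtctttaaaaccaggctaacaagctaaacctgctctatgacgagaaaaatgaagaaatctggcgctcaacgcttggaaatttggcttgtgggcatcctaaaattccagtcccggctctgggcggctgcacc
No match says only that these letters are not in this window. Of the 33 lower members with a window 11 held a match (33.3%), against 90 of 1208 lower named genes with a window (7.45%). Among the called members without a match, besides Tk1, were Rrm2, Chaf1b, Rpa2 and Cdc7. The members of deoxynucleotide supply and of single-strand binding, and Chaf1a, Chaf1b and Top2a, all had a window and held no match. Pold1 held a match and was not called. Besides E2F, the windows were searched for CCAAT and for the cell-cycle homology region (TTTGAA or TTCGAA), an element of many mitotic promoters. The homology region was in 11 of 44 members (25%), 22 of 30 genes of G2 and mitosis (73.3%) and 1380 of 7615 named genes (18.1%), while an E2F match was in 1 of those 30 mitotic genes (3.33%). CCAAT was in 26 of 44 members (59.1%), against 23 of 30 genes of G2 and mitosis (76.7%) and 3246 of 7615 named genes (42.6%), and in Mcm7 it overlapped an E2F match. These matches are descriptions of letters and not of bound sites.

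**Figure D2:**
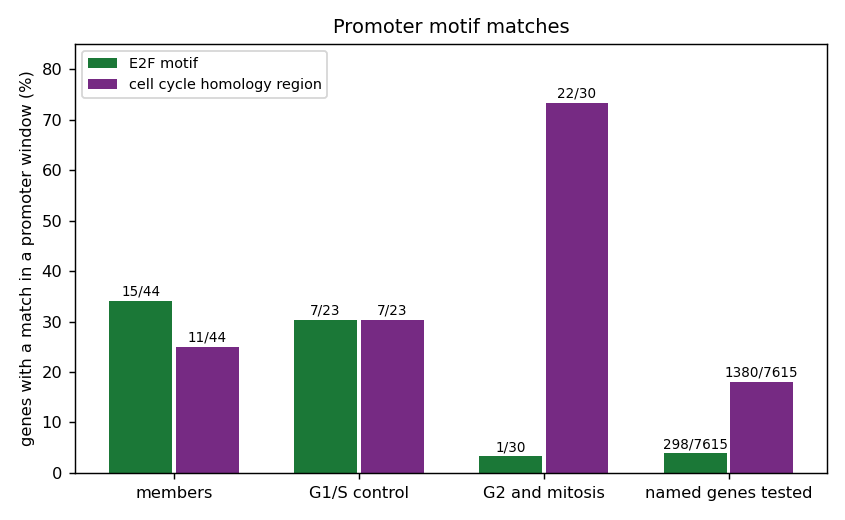
Share of genes, in percent, with an E2F match (left bar of each pair) and a cell-cycle homology region match (right bar) in a promoter window, for the 44 members, 23 G1/S control genes, 30 genes of G2 and mitosis and 7615 named genes in the fit. E2F matches stood at 34.1% in members and 3.33% in mitotic genes, and the cell-cycle homology region at 25% and 73.3%. Orc3, Cdt1, Mcm8 and Pcna are among the 44 members but were not in the fit.

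Origin recognition complex genes moved least. Orc1, Orc5 and Orc6 were lower, and Orc2 (0.070, adjusted p = 0.341) and Orc4 (0.021, adjusted p = 0.772) did not pass the test. Orc5, a core subunit, had -0.17, -0.070 and -0.27 on the Cy5 arrays and -0.28, -0.28 and -0.37 on the Cy3 arrays. Its set values were -0.23, -0.17 and -0.32, with a mean of -0.24 ± 0.075 (SD, n = 3; adjusted p = 0.00704). Orc6, the subunit that joins the core complex last, had -0.26, -0.41 and -0.30 on the Cy5 arrays and -0.12, -0.15 and -0.20 on the Cy3 arrays. Its sets gave -0.19, -0.28 and -0.25, a mean of -0.24 ± 0.048 (SD, n = 3; adjusted p = 0.00513). Both genes were below 0 on all 6 arrays. Orc1, the subunit whose protein comes and goes with the cell cycle in human cells, averaged -0.21 ± 0.033 (SD, n = 3; adjusted p = 0.00826). Orc3 was measured in full in sets 2 and 3 only, at 0.021 and -0.076, and its mean of -0.027 over the 2 sets did not pass the test (adjusted p = 0.787, among 12192 features measured in at least 2 sets).

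Of the licensing factors, Gmnn and Cdc6 were both among the largest falls. Gmnn, the inhibitor of relicensing, had -1.19, -1.37 and -0.99 on the Cy5 arrays and -1.17, -1.11 and -0.90 on the Cy3 arrays. Its set values of -1.18, -1.24 and -0.94 gave -1.12 ± 0.16 (SD, n = 3; adjusted p = 1.49e-05), a 2.18-fold fall. Every array was negative, and set 3 was the least negative. Cdc6, the ATPase that loads MCM rings, had -0.76, -0.79 and -0.56 on the Cy5 arrays and -1.02, -1.09 and -0.82 on the Cy3 arrays. Its sets stood at -0.89, -0.94 and -0.69, a mean of -0.84 ± 0.13 (SD, n = 3; adjusted p = 3.99e-05). Each of these genes had 2 probes, and the pair was close, at -1.10 and -1.15 for Gmnn and at -0.79 and -0.88 for Cdc6.

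All 6 genes of the MCM2 to MCM7 helicase were lower, within a narrow band from -0.42 to -0.16. Mcm4 had -0.44, -0.42 and -0.39 on the Cy5 arrays and -0.45, -0.44 and -0.36 on the Cy3 arrays. Its sets, at -0.44, -0.43 and -0.38, averaged -0.42 ± 0.036 (SD, n = 3; adjusted p = 0.000304). Mcm2 had -0.39, -0.62 and -0.36 on the Cy5 arrays and -0.36, -0.37 and -0.33 on the Cy3 arrays. Its sets, at -0.38, -0.49 and -0.35, averaged -0.40 ± 0.078 (SD, n = 3; adjusted p = 0.000603). Both genes were negative on all 6 arrays, and their set values overlapped. Mcm6 (-0.37), Mcm5 (-0.34) and Mcm7 (-0.29) followed. Mcm3 fell least. It had 0.091, -0.056 and -0.32 on the Cy5 arrays and -0.32, -0.20 and -0.18 on the Cy3 arrays, and its sets stood at -0.11, -0.13 and -0.25, a mean of -0.16 ± 0.076 (SD, n = 3; adjusted p = 0.037). Its arrays included a positive value, and the call was lost without set 1 (adjusted p = 0.059) or without set 3 (adjusted p = 0.119). Mcm10, which helps to activate the loaded helicase and is no subunit of the ring, stood at 0.020 (adjusted p = 0.811).

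Among the origin-firing genes the 4 GINS subunits and Cdc7 were lower, while Cdc45 and Dbf4 did not pass the test. Cdc7, the kinase that phosphorylates MCM, had -0.64, -0.83 and -0.72 on the Cy5 arrays and -0.33, -0.65 and -0.67 on the Cy3 arrays. Its sets stood at -0.49, -0.74 and -0.70, with set 1 the least negative, and averaged -0.64 ± 0.13 (SD, n = 3; adjusted p = 0.00016). Gins3 had -0.74, -0.69 and -0.64 on the Cy5 arrays and -0.46, -0.48 and -0.49 on the Cy3 arrays. Its set values of -0.60, -0.59 and -0.56 lay closer together than those of any other called member and averaged -0.58 ± 0.018 (SD, n = 3; adjusted p = 4.82e-05). Gins1 (-0.41), Gins2 (-0.29) and Gins4 (-0.26) fell by less. Dbf4, the activating partner of Cdc7, had 0.017, -0.16 and -0.45 on the Cy5 arrays and -0.14, -0.054 and -0.39 on the Cy3 arrays. The 3 sets, at -0.061, -0.11 and -0.42, lay far apart, and the mean of -0.20 ± 0.20 did not pass the test (SD, n = 3; adjusted p = 0.0858). It passed without set 1 (-0.26, adjusted p = 0.0242) and without set 2 (-0.24, adjusted p = 0.00879). Without set 3 the mean was -0.084 (adjusted p = 0.25), so the size of this average of 2 probes rests on set 3. Fits with a set left out take a gene's spread largely from all features, so passing there says little of how far apart the remaining Dbf4 sets lay.

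Genes with 2 probes show how far the choice of probe matters. Cdc45, a partner of MCM and GINS in the active helicase, averaged -0.0051 (adjusted p = 0.95) over 2 probes of opposite sign. Probe a stood at -0.27, -0.26 and -0.055 in sets 1 to 3 and, tested alone, was lower (-0.20, adjusted p = 0.0366). Probe b stood at 0.21, 0.15 and 0.20 and was higher (0.19, adjusted p = 0.0166). The 2 probes share their annotated transcript, so which of them follows the Cdc45 transcript cannot be told apart here. Probe a of Dbf4 was lower (-0.35, adjusted p = 0.00247) and probe b was not called (-0.045, adjusted p = 0.778). In sets 1 to 3 probe a stood at -0.26, -0.31 and -0.47 (SD 0.11). Probe b stood at 0.14, 0.096 and -0.37 (SD 0.28), the wider spread of the 2 probes. For Tyms, probe b was lower (-0.27, adjusted p = 0.00762) and probe a was not called (-0.027, adjusted p = 0.723). For Mcm3, probe a was lower (-0.20, adjusted p = 0.0107) and probe b was not called (-0.12, adjusted p = 0.183). The probes of Orc4 (0.072 and -0.029) and Mcm10 (0.011 and 0.029) were not called.

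**Figure D3:**
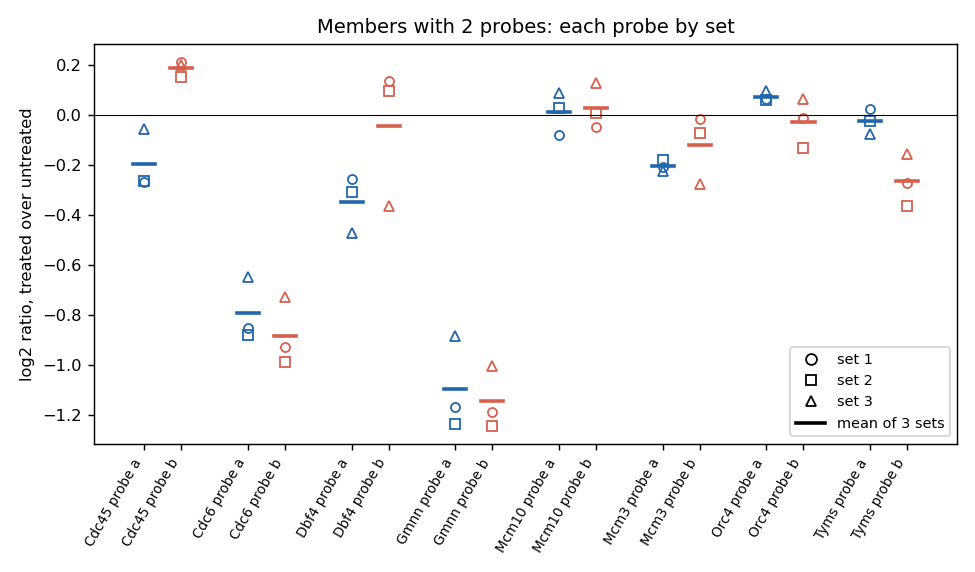
Log2 ratio of treated over untreated RNA for each probe of the 8 members with 2 probes; symbols are the 3 sets, bars their means, blue for probe a and orange for probe b. The pairs of Cdc6 and Gmnn lie close together, and those of Cdc45 lie on opposite sides of 0.

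Of the polymerase and primase genes 7 of 8 were lower. Pole2, the second subunit of the leading-strand polymerase epsilon, had -0.61, -0.52 and -0.36 on the Cy5 arrays and -0.75, -0.68 and -0.46 on the Cy3 arrays. Its sets stood at -0.68, -0.60 and -0.41 and averaged -0.56 ± 0.14 (SD, n = 3; adjusted p = 0.000328). Pole, the catalytic subunit of the same enzyme, had -0.42, -0.65 and -0.26 on the Cy5 arrays and -0.60, -0.46 and -0.37 on the Cy3 arrays. By set, the values were -0.51, -0.56 and -0.31, averaging -0.46 ± 0.13 (SD, n = 3; adjusted p = 0.000775). In both genes set 3 was the least negative, and all arrays were below 0. The subunits of polymerase alpha and primase fell by similar amounts, with Prim1 at -0.32, Pola2 at -0.29, Prim2 at -0.27 and Pola1 at -0.24. Of the lagging-strand polymerase delta, Pold2 was called and Pold1 was not. Pold1, the catalytic subunit, stood at 0.030 (adjusted p = 0.704), and its sets at 0.12, -0.045 and 0.017. Pold2, the accessory subunit, had -0.15, -0.36 and 0.010 on the Cy5 arrays and -0.33, -0.16 and -0.086 on the Cy3 arrays. Its sets, at -0.24, -0.26 and -0.038, averaged -0.18 ± 0.12 (SD, n = 3; adjusted p = 0.0479), close to the threshold. That call was lost without set 1 (adjusted p = 0.169) or without set 2 (adjusted p = 0.167).

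All 4 measured clamp-loader genes were lower. Rfc1, the large subunit, had -0.69, -0.78 and -0.49 on the Cy5 arrays and -0.46, -0.28 and -0.33 on the Cy3 arrays. The Rfc1 set values were -0.58, -0.53 and -0.41 and averaged -0.51 ± 0.085 (SD, n = 3; adjusted p = 0.000225). Rfc4 had -0.45, -0.56 and -0.26 on the Cy5 arrays and -0.43, -0.31 and -0.19 on the Cy3 arrays. Its sets, at -0.44, -0.44 and -0.22, averaged -0.37 ± 0.12 (SD, n = 3; adjusted p = 0.00228), with set 3 again the least negative. Rfc5 (-0.26) and Rfc3 (-0.25) fell by less. Pcna, the sliding clamp itself, had -0.39, -0.49 and -0.44 on the Cy5 arrays and -0.40 on the Cy3 array of set 3, and was listed at 0 on the other 2. All 4 measured values were thus negative. In a test chosen after the data were seen, on the Cy5 arrays alone, where a dye effect does not cancel, Pcna averaged -0.44 ± 0.052 (SD, n = 3 arrays) and was lower (limma adjusted p = 0.0154), as were 7.72% of the 11555 features measured on those arrays.

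All 3 genes of RPA, the complex that coats single-stranded DNA, were lower. Rpa2 had -0.66, -0.77 and -0.59 on the Cy5 arrays and -0.87, -0.82 and -0.70 on the Cy3 arrays. Sets 1 to 3 stood at -0.77, -0.80 and -0.64 and averaged -0.74 ± 0.081 (SD, n = 3; adjusted p = 3.14e-05). Rpa1, the DNA-binding large subunit, had -0.45, -0.45 and -0.29 on the Cy5 arrays and -0.65, -0.60 and -0.45 on the Cy3 arrays. Its sets stood at -0.55, -0.52 and -0.37 and averaged -0.48 ± 0.099 (SD, n = 3; adjusted p = 0.000361). Rpa3, the smallest subunit, averaged -0.23 ± 0.081 (SD, n = 3; adjusted p = 0.00906). Its Cy5 arrays averaged -0.41 and its Cy3 arrays -0.051, and its call was lost without set 1 (adjusted p = 0.0545).

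Both lagging-strand genes were lower. Fen1, the flap nuclease that trims the start of each Okazaki fragment, had -0.21, -0.26 and -0.29 on the Cy5 arrays and -0.50, -0.50 and -0.36 on the Cy3 arrays. By set, the values were -0.35, -0.38 and -0.32, averaging -0.35 ± 0.027 (SD, n = 3; adjusted p = 0.000657). Lig1, the ligase that seals the fragments, had -0.15, -0.29 and -0.21 on the Cy5 arrays and -0.21, -0.43 and -0.24 on the Cy3 arrays. The Lig1 set values were -0.18, -0.36 and -0.22 and averaged -0.26 ± 0.097 (SD, n = 3; adjusted p = 0.0077). All arrays of both genes were below 0.

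Deoxynucleotide supply held the widest spread of any role, from Tk1 at -1.12 to Dck at 0.40. Tk1, the cytosolic kinase that salvages thymidine in S phase, had -0.95, -0.98 and -0.99 on the Cy5 arrays and -1.21, -1.44 and -1.18 on the Cy3 arrays. Sets 1 to 3 stood at -1.08, -1.21 and -1.09 and averaged -1.12 ± 0.076 (SD, n = 3; adjusted p = 3.22e-06), a 2.18-fold fall. All 6 arrays were below 0, the Cy3 arrays further than the Cy5 arrays. Rrm2, the small subunit of ribonucleotide reductase, had -0.71, -0.74 and -0.49 on the Cy5 arrays and -0.99, -0.94 and -0.69 on the Cy3 arrays. Its sets stood at -0.85, -0.84 and -0.59 and averaged -0.76 ± 0.15 (SD, n = 3; adjusted p = 8.42e-05). Rrm1, the large subunit of the same enzyme, had -0.16, -0.19 and -0.19 on the Cy5 arrays and -0.11, -0.18 and -0.14 on the Cy3 arrays. By set, the values were -0.13, -0.19 and -0.16, averaging -0.16 ± 0.026 (SD, n = 3; adjusted p = 0.0244). In each set Rrm2 was thus far more negative than Rrm1, a difference between the genes that was not itself tested. Dut, the enzyme that removes dUTP, averaged -0.39 ± 0.068 (SD, n = 3; adjusted p = 0.000646).

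Tyms, which makes thymidylate from deoxyuridylate, had -0.052, -0.14 and -0.10 on the Cy5 arrays and -0.20, -0.25 and -0.14 on the Cy3 arrays. The Tyms set values were -0.13, -0.20 and -0.12 and averaged -0.15 ± 0.043 (SD, n = 3; adjusted p = 0.0391), the smallest fall among the called members. The calls of Rrm1 and Tyms were lost whichever set was left out (adjusted p from 0.0639 to 0.121 and from 0.0677 to 0.224). Dck, the kinase that salvages deoxycytidine and is not confined to S phase, ran the other way. It had 0.10, 0.27 and 0.47 on the Cy5 arrays and 0.50, 0.64 and 0.43 on the Cy3 arrays. Sets 1 to 3 stood at 0.30, 0.46 and 0.45 and averaged 0.40 ± 0.087 (SD, n = 3; adjusted p = 0.000719), 1.32-fold higher in treated cells. All 6 arrays were above 0, and on the Cy5 arrays alone the value of 0.28 did not pass the test (adjusted p = 0.0971).

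Genes that rebuild chromatin and join the new strands were all lower. Esco2, which acetylates cohesin so that sister chromatids hold together, had -1.23, -1.51 and -1.09 on the Cy5 arrays and -1.27, -1.24 and -1.04 on the Cy3 arrays. Its sets stood at -1.25, -1.38 and -1.07 and averaged -1.23 ± 0.16 (SD, n = 3; adjusted p = 9.18e-06), a 2.35-fold fall and the largest among the members. Chaf1b, a subunit of the histone chaperone CAF-1, had -0.62, -0.64 and -0.42 on the Cy5 arrays and -0.86, -0.81 and -0.63 on the Cy3 arrays. By set, the values were -0.74, -0.72 and -0.52, averaging -0.66 ± 0.12 (SD, n = 3; adjusted p = 0.000102). The other large CAF-1 subunit, Chaf1a, moved by a similar amount (-0.62 ± 0.13; SD, n = 3; adjusted p = 0.000191). Top2a, the topoisomerase that untangles finished chromosomes and peaks in G2 and mitosis, averaged -0.26 ± 0.051 (SD, n = 3; adjusted p = 0.0035).

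The sets and dyes were compared over the members. The median over the 48 was -0.34 in set 1, -0.37 in set 2 and -0.31 in set 3. Among the 41 lower members, set 3 gave the smallest fall for 26 and set 2 the largest for 20. The dye effect, tested on set means taken without turning signs, so that treatment cancels, was called for 0 of 48 members and for 0% of the 11364 features (limma). At an unadjusted p under 0.05 these counts were 9 members and 2630 features, and in the other settings run 0 members and 0 to 508 features were called. The 2630 features are a larger share than the 0.05 that no dye effect would give. A count of 0 adjusted calls thus does not show that dye effects were absent. The largest absolute dye effect among members was 0.20, for Gins2, whose Cy5 arrays averaged -0.49 and whose Cy3 arrays averaged -0.088. Array intensities were not used here, so how dim these spots were is unknown.

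**Figure D4:**
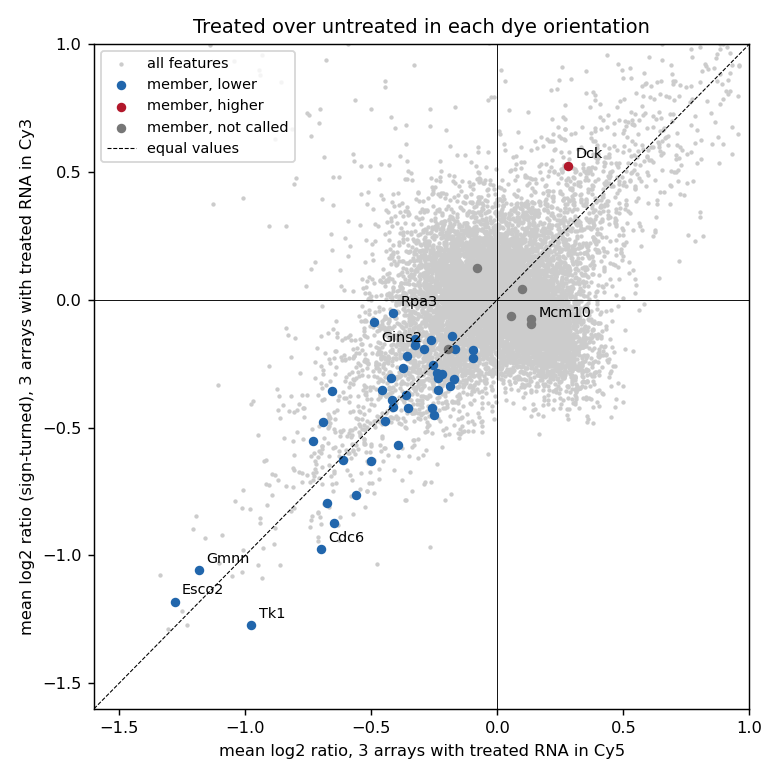
Mean log2 ratio of treated over untreated RNA on the 3 Cy5 arrays (horizontal) and the 3 Cy3 arrays, sign-turned (vertical), for all features in pale grey and members in colour; the dashed line marks equal values, and features beyond the axes, which run from -1.6 to 1, are left out. Tk1, Gmnn, Esco2 and Cdc6 lie far to the lower left, and Rpa3 and Gins2 lie off the line.

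Other genes of replication and nucleotide metabolism moved in both directions. Over all 11364 features 15.0% were lower and 14.0% higher. Of 15 further measured genes of origin firing and the fork 9 were lower and 3 higher, with a median of -0.17. Fam111a, which helps PCNA loading in human cells, stood at -0.38 ± 0.042, and Tipin, of the fork protection complex, at -0.33 ± 0.080 (SD, n = 3). Ticrr, the origin-firing factor treslin, stood at -0.32 ± 0.10, but at -0.039 on the Cy5 arrays alone (adjusted p = 0.732). Pole4, a small histone-fold subunit of polymerase epsilon, was higher (0.68 ± 0.074; adjusted p = 4.19e-05), opposite in sign to Pole and Pole2. Pole3, its histone-fold partner, stood at -0.051 ± 0.031 and was not called, nor was Mcm9 (-0.060 ± 0.085). The other 2 higher genes, Top1 (0.29) and Ssbp1 (0.18, not called without set 1 or without set 3), were named after their values were seen.

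Of 9 genes of histone supply and DNA methylation at the fork 6 were lower (66.7%, against 15.0% of all features) and 0 higher, with a median of -0.26. Slbp, which binds histone mRNA, stood at -0.68 ± 0.011, and Uhrf1 and Dnmt1, which copy DNA methylation to the new strand, at -0.68 ± 0.14 and -0.52 ± 0.026 (SD, n = 3). Hells, a chromatin remodeller, stood at -0.53 ± 0.040, but at -0.78 on the Cy5 arrays and -0.28 on the Cy3 arrays. Asf1a and Rbbp7 were not called (-0.13 ± 0.034 and -0.086 ± 0.012). Of 7 cohesion genes 2 were lower (28.6%, against 15.0% of all features). They were Sgo1 (-0.57 ± 0.13), which guards centromeric cohesion, and Smc3 (-0.35 ± 0.059), the cohesin subunit that Esco2 acetylates. Cdca5 (0.16 ± 0.42) and Pds5a (-0.12 ± 0.25) had wide spreads and were not called, though Cdca5 was higher without set 1 (0.40) and Pds5a lower without set 2 (-0.20). The remaining Pds5a sets then stood at 0.0067 and -0.41, so that call takes little account of the gene's own spread.

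In nucleotide synthesis outside the members most genes were not called. Shares over all features were 15.0% lower and 14.0% higher. Of 11 genes of purine synthesis 4 were lower and 0 higher (median -0.017), the largest being Prps2 (-0.36 ± 0.065) and Paics (-0.26 ± 0.069). Guk1 (-0.20 ± 0.070, not called without set 1) and Gart (-0.18 ± 0.096, not called without set 2 or without set 3) were lower too. Adssl1 (-0.15 ± 0.099, lower without set 3) and Hprt (0.081 ± 0.025) were not called. Of 8 genes of pyrimidine synthesis 3 were lower and 0 higher (median -0.097): Umps (-0.38 ± 0.084) and Dhodh (-0.37 ± 0.027), the last enzymes of the route to UMP, and Uck2 (-0.23 ± 0.018), a uridine kinase with 1 of 2 probes called. Cad, which opens that route, stood at -0.10 ± 0.048 and Ctps2 at -0.090 ± 0.036, neither called. Of 14 further genes of deoxynucleotide supply and breakdown 3 were lower and 3 higher (median -0.045). That share of 21.4% lower lies near the 15.0% of all features. The 2 largest changes were rises of enzymes that break down nucleosides or nucleotides. Pnp, purine nucleoside phosphorylase, had set values of 1.33, 1.46 and 1.25, a mean of 1.35 ± 0.10 (SD, n = 3; adjusted p = 2.07e-06). Samhd1, which hydrolyses dNTPs in myeloid cells, had 0.86, 1.00 and 0.89, a mean of 0.92 ± 0.077 (SD, n = 3; adjusted p = 9.75e-06). Their probes were close, at 1.33 and 1.37 for Pnp and at 0.92 and 0.92 for Samhd1. Mouse has a close relative of Pnp, Pnp2, and whether the probes tell them apart was not tested. Shmt1 (-0.18 ± 0.12) and Dctpp1 (-0.17 ± 0.035) were lower, and neither call held without set 1 or without set 2. Nudt1 (-0.14 ± 0.084, lower without set 1) and Nme1 (0.12 ± 0.066) were not called. Upp1 (0.14), higher, and Ada (-0.15), lower, were named after their values were seen, and both calls were lost whichever set was left out.

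For comparison, 28 of 32 measured genes of G2 and mitosis were lower (87.5%) and 1 was higher, with a median of -0.27. The 48 members held 41 lower and 1 higher, with a median of -0.29. Shares over all features were 15.0% lower and 14.0% higher. Ccna2, the cyclin of S phase and G2, stood at -0.59 ± 0.083, and Mki67, the gene of the proliferation marker Ki-67, at -0.49 ± 0.076 (SD, n = 3). Mad2l1, of the spindle checkpoint, stood at -0.48 ± 0.076, and Nuf2, of the kinetochore, at -0.44 ± 0.088. Bub3 (-0.10 ± 0.020) and Aurkb (0.072 ± 0.033) were not called. The higher one, Pttg1 (0.19, not called without set 3), was named after its value was seen. Of 23 G1/S control genes 13 were lower and 3 higher, with a median of -0.28. Cdkn1a, the CDK inhibitor p21, was higher (0.76 ± 0.12; adjusted p = 5.57e-05), with 3 probes from 0.32 to 1.07, all called. Ccne2 (-0.68 ± 0.14), a cyclin that drives S-phase entry, Cdkn2c (-0.66 ± 0.047), an inhibitor of Cdk4 and Cdk6, and Rbl2 (-0.64 ± 0.066), the pocket protein p130, were lower. Of these, Ccne2 differed between dyes, at -0.97 on the Cy5 arrays and -0.40 on the Cy3 arrays. Cdc25a (-0.13 ± 0.066) and Rb1 (-0.11 ± 0.059) were not called. The other 2 higher genes, Cdk6 (0.34) and Ccnd2 (0.20, not called without set 1), were named after their values were seen. Of the housekeeping genes Gapdh stood at 0.035 ± 0.035 (adjusted p = 0.61) and Actb at 0.28 ± 0.17 (adjusted p = 0.0167), so 1 of the 2 was itself called higher.

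**Figure D5:**
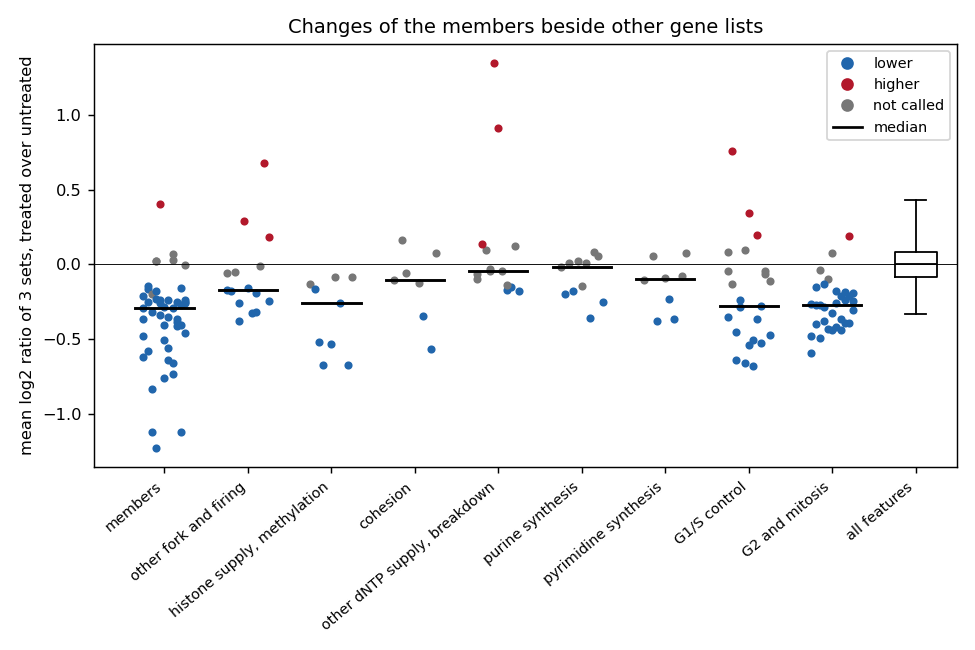
Mean log2 ratio of treated over untreated RNA over 3 sets for each gene of the members and of the other gene lists, with black bars for medians; blue points are lower, red higher and grey not called at a limma adjusted p under 0.05, and the box at the right gives the quartiles of all 11364 features with whiskers at percentiles 5 and 95. The member median of -0.29 and that of the genes of G2 and mitosis, -0.27, lie below those of purine synthesis (-0.017) and deoxynucleotide supply (-0.045), where Pnp and Samhd1 stand high above 0.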

How the data were processed

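The authors deposited a log2 ratio for each probe on each array, with a median of 0 on every array when exact zeros are counted. Medians of the measured values alone were not all 0, and centring on them moved the member median from -0.2922 to -0.2948. The base was inferred from the highest deposited value, 6.64, the log2 of a 100-fold ratio. How the authors scanned, background-corrected and normalized the arrays is not given in the sources used here. Exact zeros were taken as not measured. Arrays of opposite dye orientation correlated between -0.76 and -0.374 across probes, and the Cy3 arrays were sign-turned. Of 16281 probes, 13415 measured on all 6 arrays were kept. Probes of 1 symbol were averaged (13738 probes had 1 symbol, 52 several and 2491 none listed), which gave 9574 named genes and 1790 unnamed features. The 2 arrays of a set were averaged into 1 replicate, so that a dye effect cancels, on the assumption that a set is a dye swap. The test of the 3 set values against 0 used limma 3.58.1 (R 4.3.3; lmFit, eBayes, two-sided) with Benjamini-Hochberg adjustment over all 11364 features. The test was checked on simulated data.

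All members are named. Values by array are given for the 2 called members of each role with the largest mean, for members called higher and for members with an adjusted p from 0.02 to 0.2. From each other list up to 4 called and 2 uncalled genes are named. The members and lists were chosen with earlier results of these data known. Alternatives covered centring, scaling, set blocks, single dye orientations, left-out sets, missing values, single probes, variances and thresholds. The number of arrays limits the precision.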

Additional observations from a re-analysis of the deposited data

Results flagged for a closer look

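One probe of Mcm10 changed sign with the dye orientation. Its mean was 0.2437 on the 3 arrays with treated RNA in Cy5, all of which were above 0, and -0.1867 on the 3 arrays with treated RNA in Cy3, all of which were below 0. In the test of single probes its dye effect was 0.22 (limma adjusted p = 0.155), which did not pass the threshold. The second probe of Mcm10 showed no such split, with a mean of 0.011. No other probe of the members was positive on every array of 1 orientation and negative on every array of the other.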

How the results depend on the processing

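With 3 sets, small changes such as those of Tyms and Rrm1 lie near the limit of what passes, and without intensities the part of dim spots is unknown. Of 48 members 41 were lower, and the count was 37 to 39 with a set left out and 36 to 42 in the remaining settings other than the following. It was 32 with the set as a fixed replicate block, 26 on the Cy5 arrays alone, 29 on the Cy3 arrays alone and 3 in limma's treat against a 1.5-fold change. Of the members 1 was higher, but 0 on the Cy5 arrays alone and 0 under treat, and 2 with single probes, Dck and 1 probe of Cdc45. Over all features, 1708 lower became 894 on the Cy5 arrays, 1079 on the Cy3 arrays, 1063 at an adjusted p under 0.01 and 35 under treat, and 1586 higher became 931 on the Cy5 arrays and 261 under treat. The member median of -0.2922 was -0.3411 on the Cy5 arrays alone and ranged from -0.3241 to -0.2916 with a set left out, and was -0.3662 over members with both dye orientations of 1 sign in each set, a filter that drops weak ones by construction. No called member turned its sign in any setting. The sign of an uncalled gene turned on the Cy5 arrays alone for Orc4 (-0.0823), Cdc45 (0.0529), Cdca5 (-0.1391) and Hprt (-0.123), and on the Cy3 arrays alone for Mcm10 (-0.0946), Pold1 (-0.075), Mcm9 (0.1902), Pole3 (0.1027), Asf1a (0.026) and Ctps2 (0.0344). With a set left out, the range was -0.0068 to 0.0515 for Orc4, -0.024 to 0.0626 for Mcm10, -0.0431 to 0.0201 for Cdc45, -0.0137 to 0.0669 for Pold1, -0.0158 to 0.397 for Cdca5 and -0.2022 to 0.0215 for Pds5a. The cause of these changes was not tested. Fewer arrays or a higher bar stand behind the single orientations, treat and the stricter threshold by construction. Fits with a set left out take each gene's spread largely from all features, so their calls say little of the gene's own spread.

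Within a set, the arrays did not deviate together in the treated-over-untreated direction. Deviations of the sign-turned values from the orientation means correlated at -0.484, -0.512 and -0.0203 within sets 1, 2 and 3. As deposited, before the sign was turned, the arrays of sets 1 and 2 thus tended to deviate in the same direction. With the set as a fixed replicate block 32 members were lower, against 36 with no replicate block and 42 with a random replicate block (consensus correlation -0.513), which added Dbf4. A negative correlation lowers the error of the mean, so the random replicate block is less strict than no replicate block. The main test, with 41 lower, averages the 2 arrays of a set and so gains from it too. The fixed replicate block lost Orc1, Orc6, Mcm3, Gins2, Pold2, Rfc3, Rpa3, Rrm1 and Tyms (adjusted p from 0.0504 for Orc1 to 0.245 for Mcm3), and leaving out the replicate block lost Mcm3, Gins2, Pold2, Rpa3 and Tyms. Over all features the fixed replicate block gave 848 lower and 904 higher.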
